A study of Mus musculus with 12 samples.

Results

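The pathway that makes, removes and senses extracellular ATP and adenosine is described here by 10 genes, chosen by symbol from the 55202 genes of the deposited count table: the ectoenzymes Entpd1, Enpp1 and Nt5e, the adenosine-removing enzymes Ada and Adk, the adenosine receptors Adora2a, Adora2b and Adora3, and the ATP-gated channels P2rx4 and P2rx7. RNA was sequenced from 12 libraries, with 6 for each of the labels DMBA3-4 TAM and DMSO3-1 TAM, where TAM stands for tumor-associated macrophage. DMBA3-4 and DMSO3-1 are each 1 clone, grown out of a single cell of the C57BL/6 PyMt mammary tumor line after exposure of that line to the carcinogen 7,12-dimethylbenz[a]anthracene (DMBA) or to its vehicle DMSO, so an effect of the carcinogen and a difference between 2 clones cannot be told apart. Both clones were grown under the skin of female Rag1-/- mice, which form no mature T or B lymphocytes, and the tumors were sorted for cells bearing CD45, CD11b and F4/80. The age of the mice is not stated in the sources used here. No label ties a library to a mouse of its own, so the p-values rest on library-to-library spread alone, and that spread may be technical.

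ATP released by stressed or dying cells is a danger signal that opens P2X channels and activates P2Y receptors on immune cells. Ectoenzymes on the cell surface degrade it: ENTPD1 (CD39) removes phosphates from ATP and ADP to leave AMP, ENPP1 splits ATP into AMP and pyrophosphate and also cleaves the STING ligand cGAMP, and NT5E (CD73) turns AMP into adenosine. Adenosine dampens macrophages and lymphocytes through its Gs-coupled A2 receptors, and is removed by ADA, which deaminates it to inosine, and by ADK, which phosphorylates it to AMP inside the cell.

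A library labelled DMBA3-4 TAM held 3040452 to 4632817 counts in all, and a library labelled DMSO3-1 TAM held 2752005 to 3978901. The transcripts of the sorted proteins were nearly absent from this table: Ptprc (CD45) had 0 to 7 counts in a library labelled DMBA3-4 TAM and 0 to 2 in one labelled DMSO3-1 TAM, and Itgam (CD11b) and Adgre1 (F4/80) each had 0 to 3 in a DMBA3-4 TAM library and 0 to 2 in a DMSO3-1 TAM library. The 20 macrophage markers, none of them at 0 in every library, summed to 0.00816% to 0.0125% of the total in libraries labelled DMBA3-4 TAM, against 0.00688% to 0.00973% in libraries labelled DMSO3-1 TAM, while they made up 5.59% of the sum of the authors' mean normalized counts in their second deposited table. The 10 fibroblast markers held 0.129% to 0.194% in DMBA3-4 TAM and 0.163% to 0.229% in DMSO3-1 TAM, and the 12 epithelial markers, with Epcam at 0 in every library, held 0.152% to 0.215% in DMBA3-4 TAM and 0.102% to 0.176% in DMSO3-1 TAM. Single members of these lists moved both ways (edgeR adjusted p at most 0.0392). Fap (log2 fold change 4.51), Lum (2.26), C1qb (2.24), Ctss (2.34) and Krt8 (0.57) were higher in DMBA3-4 TAM. Pdgfrb (-1.39), Cdh1 (-4.88), Cldn3 (-3.31) and Cx3cr1 (-1.70) were lower. Fap, C1qb and Ctss had few counts in DMSO3-1 TAM (sums of 16, 24 and 25). Cdh1, Cx3cr1 and Cldn3 had few in DMBA3-4 TAM (3, 38 and 55). These genes passed the filter on low counts mainly through the other group. Each macrophage marker with too few counts to test had a larger raw sum in DMBA3-4 TAM. Examples are Fcer1g (81 in DMBA3-4 TAM and 13 in DMSO3-1 TAM), C1qa (64 and 14) and Tyrobp (43 and 5). The largest parts of the macrophage sums came from Mertk (657 in DMBA3-4 TAM and 709 in DMSO3-1 TAM) and Cd14 (522 and 343). Lyz2, Cd68, Cd14, Mertk, Krt18, Col1a1, Col3a1, Pdgfra, Dcn and Col5a1 were tested and did not pass, where 60.1% of all tested genes passed. The sums of the 10 dendritic cell markers, with Siglech at 0, did not overlap between the groups (0.00233% to 0.00322% in DMBA3-4 TAM and 0.00465% to 0.00646% in DMSO3-1 TAM). Nearly all of these counts were from Irf8 (339 in DMBA3-4 TAM and 744 in DMSO3-1 TAM) and Zbtb46 (229 in DMBA3-4 TAM and 388 in DMSO3-1 TAM), while Ccr7 had 47 in DMBA3-4 TAM and 3 in DMSO3-1 TAM. The endothelial, natural killer cell, neutrophil, T cell and B cell lists each held at most 0.00129% of a library. Libraries are therefore named as labelled throughout (DMBA3-4 TAM and DMSO3-1 TAM), the values below are not called macrophage levels, and the part of other cells in them was not tested. Neither group was uniform: over the 6918 genes that passed the test, DMBA3-4 TAM replicates 6 and 5 were the nearest of their group to the mean of the other for 42.8% and 28.3%, and DMSO3-1 TAM replicates 1, 6 and 5 for 30.0%, 26.7% and 21.4%. Each result was also computed without each library in turn, without DMSO3-1 TAM replicates 1 and 6 and without DMSO3-1 TAM replicates 2 to 5; no pair of DMBA3-4 TAM libraries was left out together.

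To show the sequence in front of the members on which the results turn, the RefSeq promoter windows (build GRCm38.p6, 250 bases before to 50 bases after a start site) of the 3 members with the largest changes, Enpp1, Ada and Adk, are printed with that of Nt5e, which did not pass the test. Capitals mark the letters matching a searched motif.
Enpp1, chr10:24712110-24712409, minus strand: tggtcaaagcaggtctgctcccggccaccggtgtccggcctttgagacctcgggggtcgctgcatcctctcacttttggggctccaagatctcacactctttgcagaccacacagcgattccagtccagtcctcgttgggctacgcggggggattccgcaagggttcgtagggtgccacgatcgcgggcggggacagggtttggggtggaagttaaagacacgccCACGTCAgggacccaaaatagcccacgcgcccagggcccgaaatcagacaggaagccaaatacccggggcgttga
Ada, chr2:163750190-163750489, minus strand: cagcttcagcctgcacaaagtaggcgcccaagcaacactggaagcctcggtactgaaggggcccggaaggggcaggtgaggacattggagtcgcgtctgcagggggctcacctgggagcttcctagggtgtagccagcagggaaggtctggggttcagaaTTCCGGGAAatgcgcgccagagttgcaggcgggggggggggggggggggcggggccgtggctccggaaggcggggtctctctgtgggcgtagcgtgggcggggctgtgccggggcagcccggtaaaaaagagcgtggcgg
Adk, chr14:21052324-21052623, plus strand: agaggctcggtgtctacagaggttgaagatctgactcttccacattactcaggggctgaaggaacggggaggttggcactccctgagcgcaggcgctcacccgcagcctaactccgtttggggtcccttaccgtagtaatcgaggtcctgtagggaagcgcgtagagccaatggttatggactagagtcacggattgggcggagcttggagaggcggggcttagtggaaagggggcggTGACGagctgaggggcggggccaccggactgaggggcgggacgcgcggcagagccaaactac
Nt5e, chr9:88327359-88327658, plus strand: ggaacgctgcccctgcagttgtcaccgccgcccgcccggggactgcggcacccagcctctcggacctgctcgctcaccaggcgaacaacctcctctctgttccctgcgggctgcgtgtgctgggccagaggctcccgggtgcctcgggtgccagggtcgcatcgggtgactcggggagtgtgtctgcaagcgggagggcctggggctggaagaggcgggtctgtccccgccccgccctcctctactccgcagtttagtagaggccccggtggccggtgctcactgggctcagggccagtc
The capitals in the Enpp1 window are a hypoxia response core (ACGTG, read on the minus strand relative to the gene, first letter at -25 from the start site) that shares letters with a cAMP response element core (TGACG, minus strand, -23). In the Ada window they are a gamma-activated site (TTCNNNGAA, -90), and in the Adk window a cAMP response element core (-12). Of the 10 members 9 matched the RefSeq table, with 12 windows in all, and both strands were searched. The cAMP core was in 5 of the 12 windows, belonging to P2rx4, Enpp1, Adk and Entpd1, against 20.8% of all 32851 promoter windows of the same length. The hypoxia core was in 1 window (19.6% of all), the gamma-activated site in 1 (8.30%), the AP-1 site TGANTCA in 2, those of Adora3 and P2rx7 (7.81%), and the interferon-stimulated response element core in 0 (3.44%). The 4 printed windows are rich in G and C, with 61.7% in Enpp1, 68.0% in Ada, 61.7% in Adk and 71.0% in Nt5e against a median of 52.7% over all windows, and hold 20 to 23 CG pairs against a median of 7. Adk has another window, chr14:21075902-21076201, which is not printed. It holds 75% G and C, 33 CG pairs and none of the searched motifs.

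Of the 10 members, 6 had enough counts to be tested (Enpp1, Nt5e, Ada, Adk, P2rx4 and P2rx7) and 4 did not (Entpd1, Adora2a, Adora2b and Adora3). By edgeR's quasi-likelihood test with Benjamini-Hochberg adjustment over all 11511 tested genes, 4 members (Enpp1, Ada, Adk and P2rx4) rose in the DMBA3-4 TAM libraries, 0 fell, and Nt5e and P2rx7 did not pass. Over all tested genes 60.1% passed at an adjusted p under 0.05, 29.9% higher and 30.2% lower, so a member that passed is not unusual in this table. The groups did not overlap for Enpp1, Ada and Adk, against 32.2% of all tested genes (17% higher and 15.2% lower). Levels are given as CPM, the counts scaled to a common library total, after TMM scaling, a correction for differences in library makeup, and in these bulk libraries fewer cells of a type and less RNA per cell cannot be told apart.

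**Figure D1:**
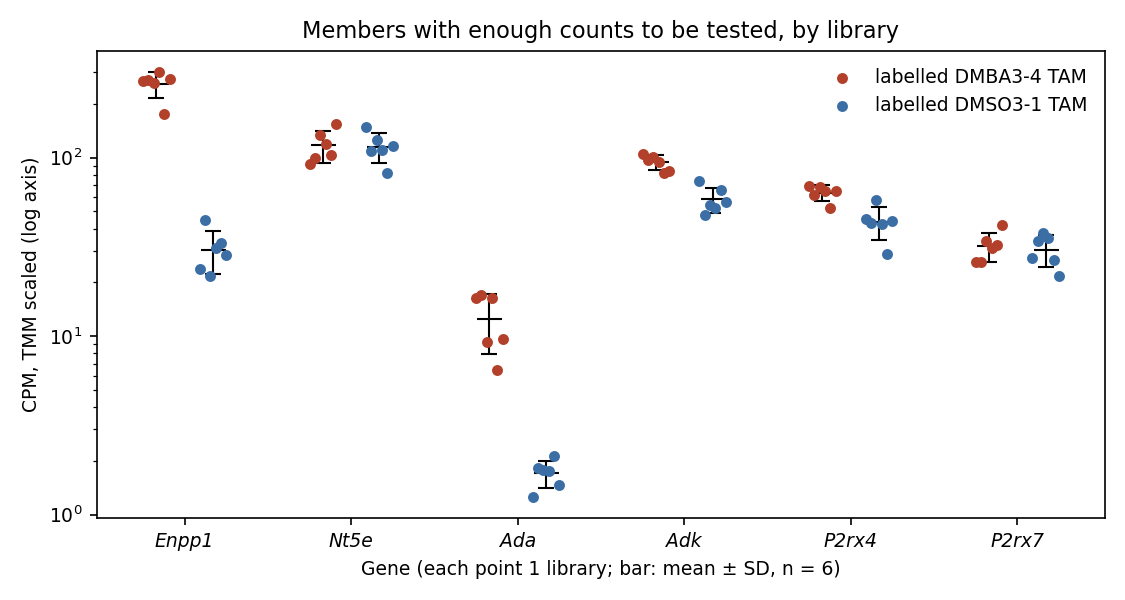
CPM on a log axis of the 6 tested members, with 1 point for each of 6 libraries per group, the libraries labelled DMBA3-4 TAM left of those labelled DMSO3-1 TAM, and bars for the mean and SD. Enpp1 and Ada stand far apart between the groups, Adk and P2rx4 by less, and the points of Nt5e and P2rx7 overlap.

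Enpp1, the pyrophosphatase that makes AMP from ATP, showed the largest change of the members. It had 174 to 301 CPM with a median of 269 in the libraries labelled DMBA3-4 TAM, against 21.8 to 44.7 with a median of 29.8 in those labelled DMSO3-1 TAM. No library of one group reached the other. The means were 258 ± 43.2 CPM in DMBA3-4 TAM and 30.5 ± 8.19 in DMSO3-1 TAM (SD, n = 6 each), and the log2 fold change was 3.08 (SE 0.18; edgeR adjusted p = 1.15e-09), or 8.44-fold. An exact two-sided permutation test on log2(CPM + 1), taking each of the 924 splits, gave p = 0.00216, the smallest it can give. Raw counts were 647 to 1234 per DMBA3-4 TAM library and 61 to 147 per DMSO3-1 TAM library, so counting error was small beside the difference. Enpp1 stood at place 225 of 11511 by log2 fold change, highest first. The gene lies on chromosome 10 (24637914 to 24712159, minus strand, GRCm38, GENCODE M21), is protein coding and shares no exon with another gene.

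Nt5e, whose product CD73 takes the last step to adenosine, had a similar spread in both groups. Its level was 91.8 to 154 CPM with a median of 111 in the libraries labelled DMBA3-4 TAM, against 81.6 to 147 with a median of 113 in those labelled DMSO3-1 TAM. The log2 fold change was 0.02 (SE 0.15; edgeR adjusted p = 0.911), with an interval of 2 SE running from -0.28 to 0.32, and the exact permutation p was 0.896. The sign of this value turned to -0.23 (adjusted p = 0.334) without DMSO3-1 TAM replicates 2 to 5, so no direction is given. The paper, by contrast, reports Nt5e among M2 macrophage genes that were significantly lower in DMBA3-4 than in DMSO3-1 TAMs. The counts used here did not show that fall. Macrophage markers summed to at most 0.0125% of a library in these counts, so they are not macrophage levels to set against the paper's. The reason for the difference was not tested. Nt5e lies on chromosome 9 (88327197 to 88372092, plus strand).

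Entpd1, the CD39 gene and the other AMP-making ectoenzyme among the members, was close to empty. It had 5, 0, 1, 1, 0 and 0 counts in the 6 DMBA3-4 TAM libraries, against 0, 1, 1, 0, 2 and 2 in those labelled DMSO3-1 TAM, sums of 7 in DMBA3-4 TAM and 6 in DMSO3-1 TAM. No difference was detectable at these counts (exact permutation p = 0.729). Entpd1 is on chromosome 19 (40612366 to 40741602, plus strand).

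Both enzymes that remove adenosine rose in the DMBA3-4 TAM libraries, by different amounts. Ada had 6.47 to 17.1 CPM with a median of 12.9 there, against 1.26 to 2.12 with a median of 1.77 in the libraries labelled DMSO3-1 TAM. The lowest library labelled DMBA3-4 TAM was above the highest labelled DMSO3-1 TAM. The means were 12.5 ± 4.59 CPM in DMBA3-4 TAM and 1.70 ± 0.299 in DMSO3-1 TAM (SD, n = 6 each). The log2 fold change was 2.85 (SE 0.31; edgeR adjusted p = 1.51e-06), or 7.23-fold, at place 242 from the top. These are small counts, 24 to 71 per DMBA3-4 TAM library and 4 to 7 per DMSO3-1 TAM library, and Ada entered the test through the libraries labelled DMBA3-4 TAM. Ada is on chromosome 2 (163726584 to 163750239, minus strand).

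Adk was expressed more evenly. It had 82.3 to 105 CPM with a median of 95.6 in the libraries labelled DMBA3-4 TAM, against 47.8 to 73.7 with a median of 55.0 in those labelled DMSO3-1 TAM, with a gap between the groups. The log2 fold change was 0.69 (SE 0.12; edgeR adjusted p = 0.000193), or 1.61-fold, and both Ada and Adk reached the smallest exact permutation p of 0.00216. Adk is on chromosome 14 (21052574 to 21448569, plus strand).

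The adenosine receptors gave almost no reads. Adora2a, the receptor through which adenosine raises cAMP in immune cells, had counts of 0, 0, 4, 0, 0 and 1 in the libraries labelled DMBA3-4 TAM, against 0, 0, 0, 0, 0 and 1 in those labelled DMSO3-1 TAM. Adora2b, a related receptor of lower affinity, had 0, 1, 0, 0, 3 and 1 in DMBA3-4 TAM, against 0, 2, 2, 0, 1 and 0 in DMSO3-1 TAM. Adora3, a Gi-coupled receptor, had 0, 1, 0, 2, 0 and 1 in DMBA3-4 TAM, against 1, 0, 0, 0, 0 and 1 in DMSO3-1 TAM. The sums of Adora2a, Adora2b and Adora3 were 5, 5 and 4 in DMBA3-4 TAM and 1, 5 and 2 in DMSO3-1 TAM. No difference was detectable at these counts (exact permutation p = 0.727, 0.848 and 0.697 for Adora2a, Adora2b and Adora3). Adora1, the remaining adenosine receptor, had 0 counts in all 12 libraries. Taken alone, a library with 0 counts allows an expected count of up to 3 by counting error, and the 12 together allow less in each. Adora2a is on chromosome 10 (75316877 to 75334784, plus strand), Adora2b on chromosome 11 (62248984 to 62266453, plus strand) and Adora3 on chromosome 3 (105870858 to 105908926, plus strand). The exons of Adora3 overlap those of Tmigd3, which had 1 count in the whole table.

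The 2 ATP-gated channels sit next to each other on chromosome 5, P2rx7 at 122643911 to 122691432 and P2rx4 at 122707544 to 122729738, both on the plus strand and 16111 bases apart, and only P2rx4 passed the test. P2rx4, a channel opened by low ATP concentrations, had 52.0 to 69.6 CPM with a median of 64.8 in the libraries labelled DMBA3-4 TAM, against 28.7 to 57.5 with a median of 43.6 in those labelled DMSO3-1 TAM. One library labelled DMBA3-4 TAM (replicate 5) fell within the range of the other group. The log2 fold change was 0.55 (SE 0.14; edgeR adjusted p = 0.00391), or 1.46-fold, with an exact permutation p of 0.00433.

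P2rx7, a channel that needs high ATP and is known in macrophages for opening the way to NLRP3 inflammasome activation, had 26.0 to 42.0 CPM with a median of 31.8 in the libraries labelled DMBA3-4 TAM, against 21.6 to 37.9 with a median of 30.8 in those labelled DMSO3-1 TAM. The ranges overlapped over most of their length. Its log2 fold change was 0.07 (SE 0.17; edgeR adjusted p = 0.742; interval of 2 SE -0.27 to 0.40; exact permutation p = 0.671). Its sign turned to -0.044 (adjusted p = 0.833) without DMSO3-1 TAM replicates 1 and 6. The exons of P2rx7 overlap Mir8115, which had 0 counts. A direct test of P2rx4 against P2rx7 was not run, so the pair is not shown to differ in response.

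Replicate 5 of the libraries labelled DMBA3-4 TAM was the lowest of its group for each of the 4 members that passed. Without it the log2 fold changes were 3.17 for Enpp1, 2.99 for Ada, 0.73 for Adk and 0.61 for P2rx4, all still past the threshold (edgeR adjusted p at most 0.00265).

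Per kilobase of exon, the order of the members differed between the groups. In libraries labelled DMBA3-4 TAM the level was highest for Enpp1, with 25.2 ± 4.21 CPM per kilobase, followed by Nt5e with 13.6 ± 2.71, Adk with 11.02 ± 1.08, P2rx4 with 9.05 ± 0.897, Ada with 6.26 ± 2.29 and P2rx7 with 5.35 ± 0.996 (SD, n = 6). The ranges of every pair of neighbours in this order overlapped. In those labelled DMSO3-1 TAM Nt5e led with 13.4 ± 2.51, followed by Adk (6.83 ± 1.13), P2rx4 (6.20 ± 1.30), P2rx7 (5.11 ± 1.04) and Enpp1 (2.98 ± 0.799), and Ada was lowest with 0.850 ± 0.150. Neighbours from Adk to Enpp1 in this order overlapped, while Adk and Enpp1 themselves did not. Nt5e was separated from Adk, and Enpp1 from Ada, by a gap between their ranges.

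Ratios within a library, which do not depend on its scaling, set the steps of the pathway side by side as a description. Enpp1 over Nt5e per kilobase sets an AMP-making against an AMP-using ectoenzyme, and leaves out others such as Enpp3. This ratio was 1.41 to 2.44 with a median of 1.88 in the libraries labelled DMBA3-4 TAM. In those labelled DMSO3-1 TAM it was 0.135 to 0.344 with a median of 0.221. Enpp1 was thus above Nt5e in every DMBA3-4 TAM library and below it in every DMSO3-1 TAM library. For Ada over Adk the ratio was 0.335 to 0.750 with a median of 0.573 in DMBA3-4 TAM, against 0.0729 to 0.163 with a median of 0.139 in DMSO3-1 TAM. Adk stayed above Ada in all 12 libraries. For P2rx4 over P2rx7 it was 1.30 to 2.27 with a median of 1.74 in DMBA3-4 TAM, against 0.917 to 1.74 with a median of 1.18 in DMSO3-1 TAM, and the groups overlapped.

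**Figure D2:**
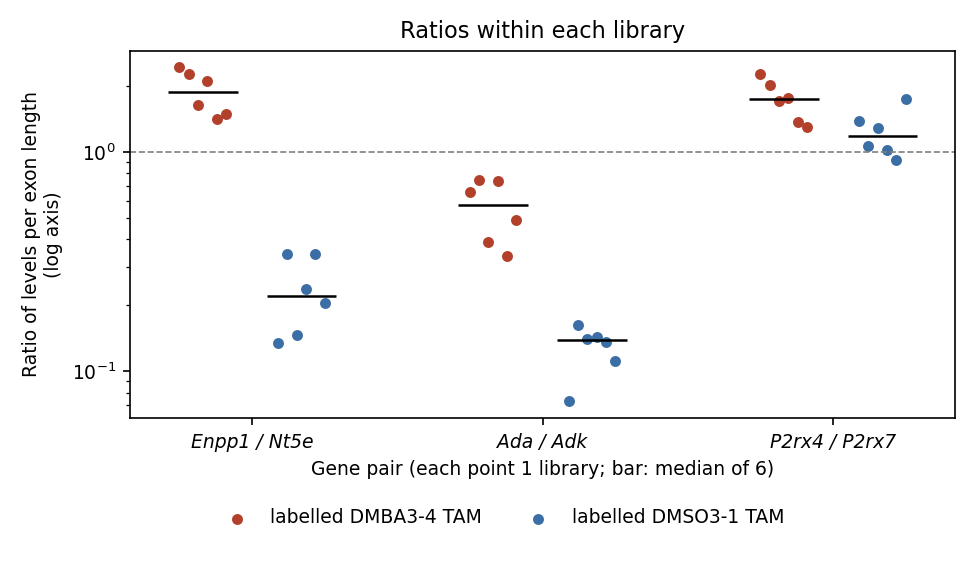
Ratio of levels per kilobase of exon on a log axis for 3 gene pairs, with 1 point for each of 6 libraries per group, a bar for the median, and a dashed line at equal levels. Enpp1 over Nt5e lies above the line in the libraries labelled DMBA3-4 TAM and below it in those labelled DMSO3-1 TAM.

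The second deposited table gives 1 mean normalized count per gene for 37140 named genes, with no value per library and so with no SD. All 10 members are in it, in another order. Scaled to the same total as CPM and divided by the kilobases of exon, Entpd1 stood highest at 42.7, followed by P2rx4 at 36.8, P2rx7 at 26.5, Nt5e at 24.5 and Adora2b at 18.4. Ada was at 10.97, Enpp1 at 5.44, Adk at 3.26, Adora3 at 1.93 and Adora2a at 0.412. Among the genes of that table, before division by length, Entpd1, P2rx4, P2rx7 and Nt5e lay at the 97.2 to 98.5 percentiles and Adora2a at 64.7. Entpd1, first of the members in the authors' table per kilobase and second to P2rx4 before division by length, averaged 0.296 CPM in the DMBA3-4 TAM libraries and 0.333 CPM in the DMSO3-1 TAM libraries of the count table. Adora2b likewise had 5 counts in each group of the count table. Per kilobase the authors' means gave 0.222 for Enpp1 over Nt5e, 3.37 for Ada over Adk and 1.39 for P2rx4 over P2rx7, with Ada above Adk. The 2 tables were scaled separately, and the samples named with the authors' table do not bear the names of the count columns, so these levels are set side by side without a test.

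**Figure D3:**
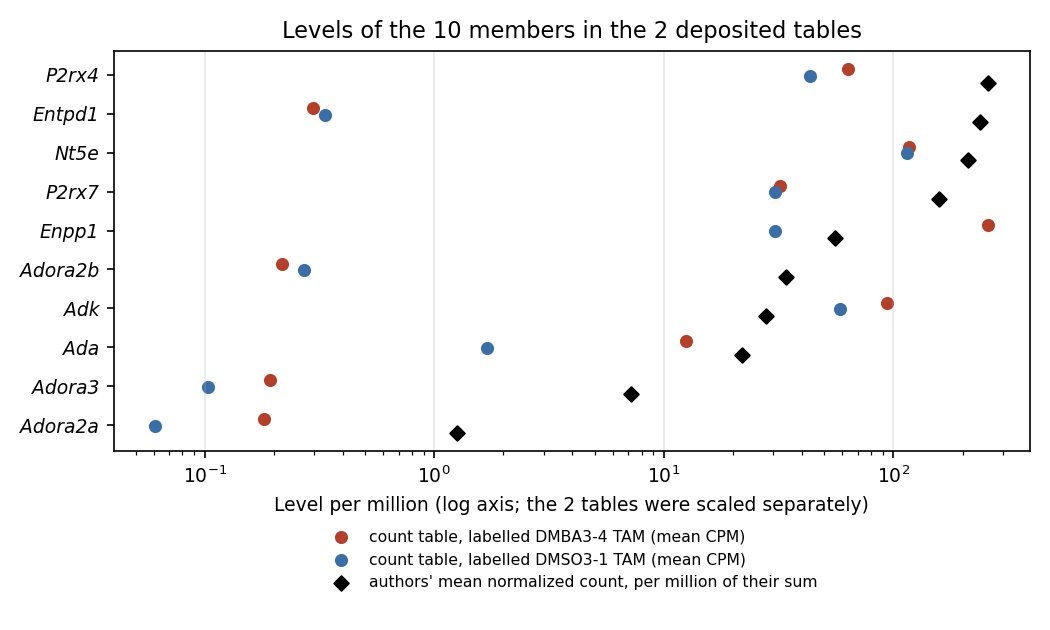
Level of the 10 members on a log axis, not divided by gene length, as the mean CPM of the 6 libraries per group (red circles for DMBA3-4 TAM, blue for DMSO3-1 TAM) and as the authors' mean normalized count scaled to the same total (diamonds). Entpd1 and the 3 adenosine receptors are below 1 CPM in the count table, and Entpd1 is at 238 in the authors' table.

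The other genes of the pathway were taken from 10 lists of 73 genes. Of these 39 were tested, 12 rose in the DMBA3-4 TAM libraries, 16 fell and 11 did not pass, where 60.1% of all tested genes passed, 29.9% higher and 30.2% lower. The lists had a median log2 fold change of -0.07, against 0.00 over all tested genes. Several of those named below (Enpp3, Acpp, P2ry1, P2ry2, Adcy3 and Pycard) had few counts in one group and entered the test through the other. Levels are means ± SD over 6 libraries.

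Genes for the release of ATP and the breakdown of nucleotides moved both ways. Of 10 ATP release channels and transporters 3 were tested, 0 were higher, 2 were lower and 1 did not pass. Lrrc8a, a subunit of the volume-regulated anion channel, fell to 86.3 ± 7.95 CPM in the libraries labelled DMBA3-4 TAM, against 172 ± 18.3 in those labelled DMSO3-1 TAM (log2 fold change -0.997; edgeR adjusted p = 9.89e-07). Gja1, which encodes the hemichannel protein connexin 43, had 557 ± 40.7 CPM in DMBA3-4 TAM and 667 ± 102 in DMSO3-1 TAM (log2 fold change -0.26; edgeR adjusted p = 0.0474), and this call was lost in 14 of 21 alternatives, with adjusted p up to 0.215. Of 7 other ectonucleotidases and phosphatases 2 were tested, 1 higher and 1 lower. Enpp3, a relative of Enpp1 that also cleaves extracellular ATP, had 51.9 ± 17.7 CPM in DMBA3-4 TAM, against 2.11 ± 2.19 in DMSO3-1 TAM (log2 fold change 4.55, SE 0.48; edgeR adjusted p = 2.74e-06). Acpp, an acid phosphatase with a form that cleaves AMP, had 1.26 ± 1.12 CPM in DMBA3-4 TAM and 7.02 ± 2.54 in DMSO3-1 TAM and was lower (log2 fold change -2.42). Of the 2 NAD glycohydrolases only Cd38 was tested and it did not pass (log2 fold change -0.55; edgeR adjusted p = 0.0760).

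Among receptors, 1 of 5 other P2X channels was tested and did not pass (P2rx5, log2 fold change 0.40). Of 7 P2Y receptors, which are G protein-coupled, 2 were tested. P2ry1, a receptor for ADP, had 6.55 ± 1.79 CPM in the libraries labelled DMBA3-4 TAM, against 1.04 ± 0.859 in those labelled DMSO3-1 TAM (log2 fold change 2.64; edgeR adjusted p = 4.41e-05; 3.71 without DMSO3-1 TAM replicates 2 to 5). P2ry2, a receptor for ATP and UTP, had 0.689 ± 0.705 CPM in DMBA3-4 TAM and 14.6 ± 2.66 in DMSO3-1 TAM, the reverse direction (log2 fold change -4.30; edgeR adjusted p = 6.53e-07; -4.98 without DMBA3-4 TAM replicate 3).

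Of 6 nucleoside transporters 3 were tested and all passed, 1 higher and 2 lower. Slc29a1 (ENT1), the main equilibrative carrier that takes adenosine into cells, had 1361 ± 79.5 CPM in DMBA3-4 TAM, against 844 ± 61.8 in DMSO3-1 TAM (log2 fold change 0.69; edgeR adjusted p = 7.83e-06). Its relatives Slc29a2 (4.55 ± 2.0 CPM in DMBA3-4 TAM and 10.7 ± 2.07 in DMSO3-1 TAM; log2 fold change -1.22) and Slc29a3 (10.3 ± 2.65 CPM in DMBA3-4 TAM and 20.9 ± 2.73 in DMSO3-1 TAM; -1.02) were lower.

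Of 13 genes listed as purine enzymes around adenosine, which include the untested peptidase gene Dpp4, 9 were tested, 3 higher, 3 lower and 3 not past the threshold. Pnp, which splits the inosine made by ADA, had 81.2 ± 15.1 CPM in the libraries labelled DMBA3-4 TAM, against 23.0 ± 8.30 in those labelled DMSO3-1 TAM (log2 fold change 1.82; edgeR adjusted p = 5.00e-06). Xdh, which oxidises the resulting hypoxanthine toward uric acid, had 52.9 ± 14.9 CPM in DMBA3-4 TAM and 153 ± 23.8 in DMSO3-1 TAM and was lower (log2 fold change -1.53). Thus of the enzymes that take adenosine toward uric acid, Ada and Pnp were higher and Xdh was lower. Aprt, which salvages adenine, was higher (420 ± 36.3 CPM in DMBA3-4 TAM and 265 ± 33.0 in DMSO3-1 TAM; log2 fold change 0.66), and Nt5c2, a cytosolic nucleotidase, was lower (40.9 ± 8.17 CPM in DMBA3-4 TAM and 67.4 ± 6.92 in DMSO3-1 TAM; -0.72).

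Of 15 genes listed for G protein and cAMP signaling downstream of the A2 receptors, 13 were tested, 3 higher, 5 lower and 5 not past the threshold. The receptor genes Adora2a and Adora2b themselves had almost no counts, as given above, and signaling through them was not tested. Pde4b, which breaks down cAMP, had 7.57 ± 3.61 CPM in DMBA3-4 TAM, against 33.5 ± 6.86 in DMSO3-1 TAM (log2 fold change -2.15), and Prkacb, a catalytic subunit of protein kinase A, had 79.6 ± 10.3 CPM in DMBA3-4 TAM and 150.2 ± 36.6 in DMSO3-1 TAM (-0.92). Adcy3, an adenylate cyclase, had 6.74 ± 1.69 CPM in DMBA3-4 TAM, against 1.58 ± 0.730 in DMSO3-1 TAM (log2 fold change 2.06). Crem, a transcription factor gene induced by cAMP, had 28.9 ± 4.43 CPM in DMBA3-4 TAM and 17.4 ± 3.95 in DMSO3-1 TAM (0.72; 0.48 with an edgeR adjusted p of 0.103 without DMSO3-1 TAM replicates 2 to 5).

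Downstream of P2RX7, 5 of 7 inflammasome genes were tested, 3 higher and 2 lower, and Nlrp3 itself had 0 counts in all 12 libraries. Il18, a cytokine released through the inflammasome, had 33.1 ± 3.25 CPM in the libraries labelled DMBA3-4 TAM, against 9.74 ± 3.49 in those labelled DMSO3-1 TAM (log2 fold change 1.76). Gsdmd, which forms the membrane pore, had 48.6 ± 4.34 CPM in DMBA3-4 TAM and 15.6 ± 3.26 in DMSO3-1 TAM (1.64). Pycard, the adaptor ASC, had 1.31 ± 0.865 CPM in DMBA3-4 TAM, against 17.9 ± 11.8 in DMSO3-1 TAM with a range of 4.03 to 32.3 (log2 fold change -3.74; -1.78 without DMSO3-1 TAM replicates 2 to 5). Nek7, a kinase that binds NLRP3, had 87.4 ± 13.6 CPM in DMBA3-4 TAM and 173 ± 64.0 in DMSO3-1 TAM (-0.99; -0.31 with an edgeR adjusted p of 0.131 without the same replicates).

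**Figure D4:**
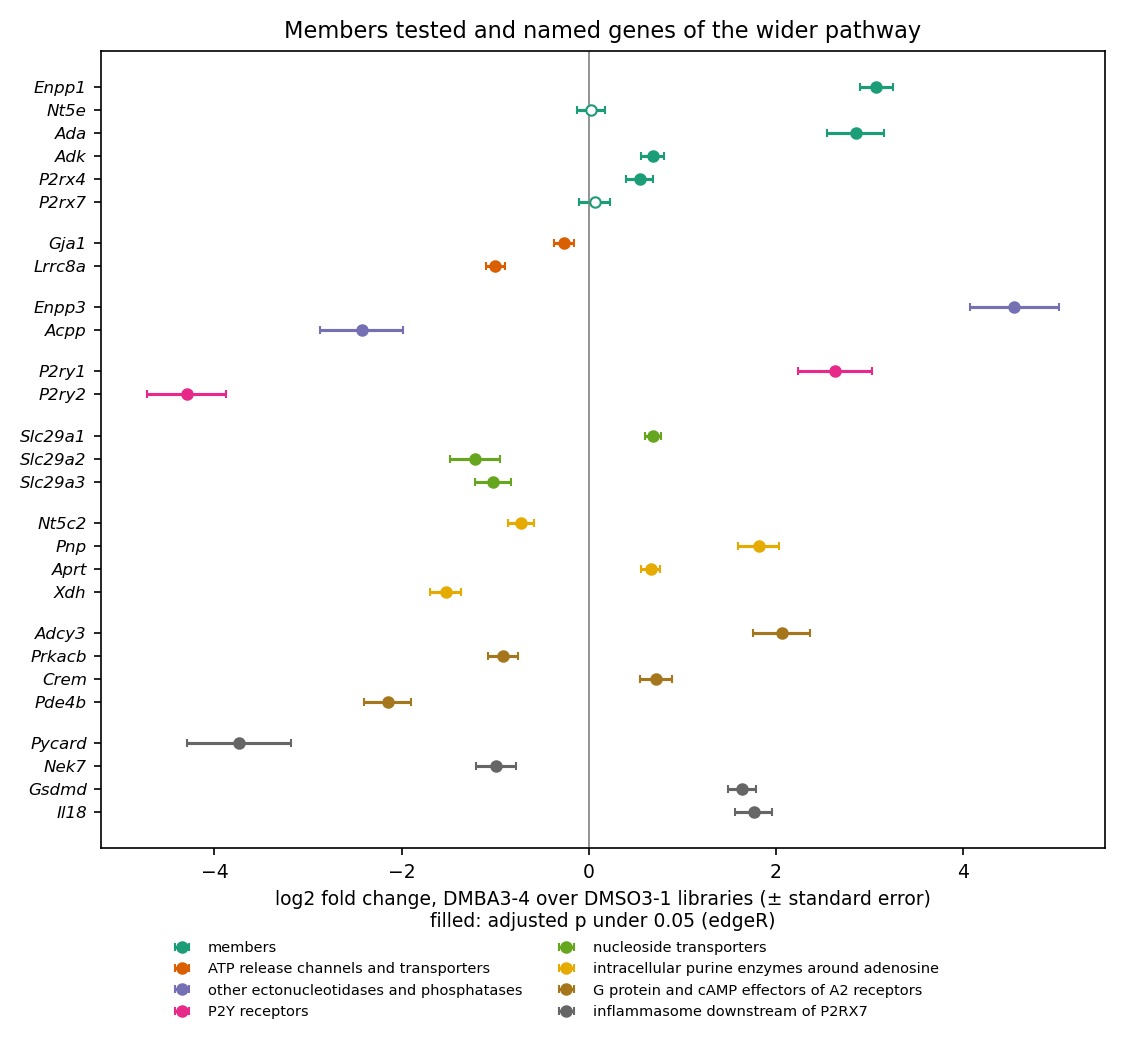
Log2 fold change, libraries labelled DMBA3-4 TAM over those labelled DMSO3-1 TAM, with its standard error, for the 6 tested members and the named genes of the wider pathway, colored by list; filled points have an edgeR adjusted p under 0.05. Enpp1 and Ada lie near 3, Nt5e and P2rx7 near 0, and the genes of the wider lists lie on both sides of 0.

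**Figure D5:**
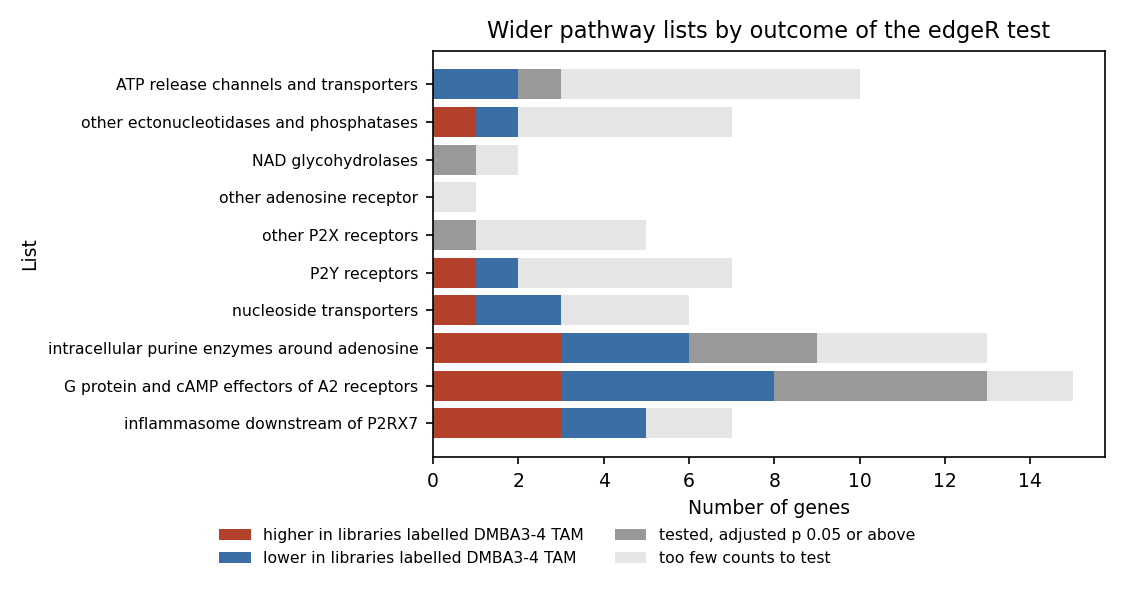
Number of genes in each of the 10 wider pathway lists that were higher, lower or not past the threshold by edgeR, or had too few counts to test. ATP release has 0 genes higher and 2 lower, and each other list with 2 or more called genes has genes in both directions.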

How the data were processed

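RNA-seq was analysed from 12 libraries, 6 per group, grouped by the labels. The authors deposited raw counts per gene as whole numbers; the submitters' notes name GRCm38 (mm10), and the sources used here do not give the aligner, counting program or strand setting. The paper's methods describe SmartSeq2, and the labels another kit. The authors' second deposited table holds a mean normalized count, used here as a signal value without SD, and their own fold changes and p-values in DESeq2's column layout, which were not used; the paper names limma. Of the per-library columns 0 were left out.

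Entries with a number for a name (19, at 0.0893% to 0.128% of counts) were dropped. Genes passing filterByExpr were TMM-scaled and tested with the robust quasi-likelihood fit of edgeR 4.0.16 (R 4.3.3), adjusted over all tested genes; the biological coefficient of variation was 23.3%. Exon lengths and coordinates are GENCODE M21. Alternatives were DESeq2 1.42.0, limma-voom (limma 3.58.1), 2 other scalings, no filter, at least 5 CPM in 6 libraries, a replicate block, leaving out each library, and leaving out DMSO3-1 TAM replicates 1 and 6 or 2 to 5. Calls used an adjusted p under 0.05. All members are named, and of each list up to 4 passing genes with the largest absolute log2 fold change and a mean of at least 1 CPM. The members and lists were chosen with earlier results of these data known. Scripts were tested on simulated data. Intervals and limits cover counting error only where named so.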

Additional observations from a re-analysis of the deposited data

Results flagged for a closer look

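A library lying far from the other 5 of its group was found in 5 of 54 groups examined (gap to the nearest library over the group's range above Dixon's critical value at the 95% level), and chance gives about 1 in 20. Enpp1 was lowest in DMBA3-4 TAM replicate 5, at 174 CPM, with the next library at 260.3 and the highest at 301. Adcy3 was highest in DMBA3-4 TAM replicate 6, at 10.1 CPM, with the next at 6.47. Pycard was also highest in DMBA3-4 TAM replicate 6, at 2.97 CPM, with the next at 1.35, all below the lowest library labelled DMSO3-1 TAM (4.03). P2ry1 was highest in DMSO3-1 TAM replicate 5, at 2.72 CPM, with the next at 0.913, and Slc29a3 was lowest in DMSO3-1 TAM replicate 4, at 15.5 CPM, with the next at 20.7.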

How the results depend on the processing

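The 4 members called (Enpp1, Ada, Adk and P2rx4) were called higher in each of the 21 alternatives, with log2 fold changes of 2.99 to 3.25 for Enpp1, 2.69 to 3.12 for Ada, 0.47 to 0.79 for Adk and 0.45 to 0.63 for P2rx4. Nt5e and P2rx7 were called in none and changed sign: Nt5e was -0.23 without DMSO3-1 TAM replicates 2 to 5 and ran from -0.066 to 0.11 when 1 library was left out, and P2rx7 was -0.044 without DMSO3-1 TAM replicates 1 and 6 and ran from -0.021 to 0.14. All genes called numbered 6918, with 4605 without DMSO3-1 TAM replicates 2 to 5, 7544 without DMSO3-1 TAM replicates 1 and 6, 8354 with no filter, and 6490 to 7139 when 1 library was left out. Genes called in the wider lists numbered 28 and ran from 25 to 31. Without a filter on low counts the median log2 fold change of all genes was -0.13, and Entpd1, Adora2a, Adora2b and Adora3 then had edgeR adjusted p of 0.968, 0.380, 0.916 and 0.685. Enpp3 was 5.20 by limma-voom. The cause of these changes was not tested. With the replicate number as a block, 6481 genes and 4 members were called, and 26 list genes, Gja1 being lost (adjusted p = 0.0997). The numbers are not shown to pair the samples: same-numbered libraries had correlated deviations of -0.16 to 0.13, and 0 of 6 correlated best with its own number. Entpd1 and the adenosine receptors had at most 5 counts in a library, which limits what could be detected for them. Why they were so low was not tested.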

Other observations

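These values were chosen after they were seen. The gene next to Enpp1 on chromosome 10 is Enpp3, 60.2 kb away and higher in the libraries labelled DMBA3-4 TAM as described, while the neighbour on its other side, Ccn2, which encodes a matrix-associated growth factor, was lower (6.83 ± 2.0 CPM in DMBA3-4 TAM and 10.8 ± 2.16 in DMSO3-1 TAM, log2 fold change -0.64; edgeR adjusted p = 0.0289). Of the 10 nearest coding neighbours of the tested members 9 were tested, 4 higher and 3 lower, in a table where 60.1% of all tested genes passed. Ada lies 0.425 kb from Pkig, which encodes a protein kinase A inhibitor and was higher (45.2 ± 4.44 CPM in DMBA3-4 TAM and 33.1 ± 7.17 in DMSO3-1 TAM, log2 fold change 0.45). P2rx4 lies 1.43 kb from Camkk2, a calcium-dependent kinase gene, which was lower (25.8 ± 4.94 CPM in DMBA3-4 TAM and 52.5 ± 22.5 in DMSO3-1 TAM, log2 fold change -1.03). P2rx6, an ATP-gated channel subunit with too few counts for the filter, had 1.01 to 3.96 CPM in the libraries labelled DMBA3-4 TAM, against 0 to 0.757 in those labelled DMSO3-1 TAM, with no overlap. The latter are 0 to 3 counts per library, and P2rx6 was not tested. The groups did not overlap for 32.2% of all tested genes, a share that leaves out genes below the filter, such as P2rx6.

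Other nucleotide-sensing genes known from macrophages and microglia were high in the authors' table and nearly empty in the count table. P2ry6, a UDP receptor, had an authors' mean of 1352 and 0 to 6 counts per library, and P2ry12, P2ry13 and P2ry14 had authors' means of 480.0, 298 and 139 with 0 to 2 counts. Il1b had an authors' mean of 4502 and 0 to 8 counts, and Nlrp3 had 272 and 0 counts. Ank, a transporter that exports ATP and pyrophosphate, had the highest level per kilobase of exon of the list genes in the count table, 952 ± 159.5 CPM per kilobase in libraries labelled DMBA3-4 TAM, against 724 ± 344 in those labelled DMSO3-1 TAM (edgeR adjusted p = 0.247).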
